A study of Mus musculus with 12 samples.

Results

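The glucocorticoid receptor gene Nr3c1 and 8 genes known to be induced by dexamethasone (Fkbp5, Tsc22d3, Sgk1, Zbtb16, Dusp1, Hsd11b1, Errfi1 and Fam107a) were followed through fat-cell differentiation of mouse bone marrow mesenchymal stem cells. These 9 genes are 9 of the 23955 gene symbols in the counts table, and all 9 were among the 12323 genes abundant enough to be tested. They were chosen by name from earlier results of the same libraries, so their values are given as a description and no p-value is given for them. RNA was sequenced after 14 days of treatment with 50 nM tributyltin (TBT), 500 nM rosiglitazone (ROSI) or 0.1% DMSO, the vehicle, with 4 libraries in each group. Every culture, the DMSO cultures included, also received an adipogenic mixture of insulin at 5 ug/mL, dexamethasone at 1 uM and isobutylmethylxanthine at 0.5 mM, so there was no group without dexamethasone. The cells were commercial marrow stromal cells of female C57BL/6 mice at passage 9 or 10, and no label states that replicates were grown from different animals or in different dishes. The p-values given below for other genes therefore rest on variation among libraries that may be only technical.

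Dexamethasone is a synthetic glucocorticoid that enters the cell and binds the glucocorticoid receptor, which is held ready for its ligand by heat shock chaperones. The bound receptor moves to the nucleus, where it raises transcription of some genes from palindromic response elements and lowers that of many inflammatory and matrix genes. Dexamethasone is a standard part of adipogenic mixtures because glucocorticoids prepare stromal cells for fat-cell differentiation. Isobutylmethylxanthine blocks the breakdown of cAMP, rosiglitazone activates the fat-cell receptor PPARγ, and tributyltin is an organotin that binds both PPARγ and its partners, the retinoid X receptors.

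Promoter sequence is shown for the 4 genes whose start-site windows held a full receptor element or a cAMP response element, or whose level differed most between treatments. RefSeq windows (GRCm38.p6, 300 bases around each start site) were searched for 7 of the 9 genes, 17 windows in all. Nr3c1 was left out by design, and no window was matched for Zbtb16. The letters searched on both strands were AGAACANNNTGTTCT (the palindromic glucocorticoid response element), AGAACA (its half-site, which the full element contains on each strand) and TGACGTCA (the cAMP response element). Each sequence is the 250 bases before the start site, 5′ to 3′ on the gene's strand, with the matches in capitals.
Sgk1, chr10:21993640-21993889, plus strand: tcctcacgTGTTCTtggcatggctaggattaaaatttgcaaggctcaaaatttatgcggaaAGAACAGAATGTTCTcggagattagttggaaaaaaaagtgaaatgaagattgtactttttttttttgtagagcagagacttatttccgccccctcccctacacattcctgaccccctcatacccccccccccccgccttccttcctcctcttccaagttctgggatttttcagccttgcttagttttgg
Dusp1, chr17:26508473-26508722, minus strand: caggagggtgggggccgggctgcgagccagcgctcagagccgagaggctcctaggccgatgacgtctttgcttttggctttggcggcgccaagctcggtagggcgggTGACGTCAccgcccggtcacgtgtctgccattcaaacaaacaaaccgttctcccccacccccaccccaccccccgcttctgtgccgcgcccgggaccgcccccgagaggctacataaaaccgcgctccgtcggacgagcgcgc
Errfi1, chr4:150854820-150855069, plus strand: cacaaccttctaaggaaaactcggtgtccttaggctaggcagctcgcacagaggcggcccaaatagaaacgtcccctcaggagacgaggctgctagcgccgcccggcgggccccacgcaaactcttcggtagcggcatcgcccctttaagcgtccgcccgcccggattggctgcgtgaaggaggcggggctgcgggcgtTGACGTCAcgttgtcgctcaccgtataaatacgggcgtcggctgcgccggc
Fam107a, chr14:8309778-8310027, minus strand: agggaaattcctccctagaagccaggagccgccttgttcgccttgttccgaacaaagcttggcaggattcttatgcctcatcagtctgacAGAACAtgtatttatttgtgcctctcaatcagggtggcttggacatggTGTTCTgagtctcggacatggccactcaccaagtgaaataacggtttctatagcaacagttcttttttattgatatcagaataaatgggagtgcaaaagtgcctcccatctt

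The full palindrome was found in 3 of 32851 windows of all genes (0.00913%), and 1 of these 3 was the Sgk1 window shown. It lies at chr10:21993701-21993715, 189 bases before that start site and 965 bases before the last annotated Sgk1 start site. At least 1 half-site stood in windows of 3 of the 7 genes (Tsc22d3, Sgk1 and Fam107a), against 21.3% of all genes. The 7 genes have 17 windows, while all 27025 genes have 32851, so these shares by gene rest on unlike numbers of windows per gene. Counted by window, 6 of the 17 windows held one, against 19% of all windows, but 3 of these 6 belong to Sgk1, which has 6 windows, and 2 are windows of Fam107a that overlap almost fully. The cAMP response element stood in windows of Dusp1 and Errfi1, 143 and 51 bases before the start site, which is 2 of the 17 windows, against 1.79% of all windows. A match describes the letters of a window and is not evidence of binding in these cells.

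Library totals ran from 4027152 to 7474654 counts, and levels are given as CPM, the count of a gene scaled by the TMM-adjusted library total. TBT replicate 4 stood apart from its group: its mean correlation across genes was 0.953 with the other TBT libraries and 0.961 with the DMSO libraries, while TBT replicates 1 to 3 reached 0.968 to 0.970 with their own group. Ribosomal precursor RNA (Rn45s) took 6.85% of its counts, against 0.399% to 0.670% in TBT replicates 1 to 3, 1.36% to 9.27% in ROSI libraries and 2.64% to 6.18% in DMSO libraries. Base composition was compared by each gene's log2 level minus its mean over the 12 libraries. The median of this deviation in GC-rich genes minus that in GC-poor genes was 0.11 in TBT replicate 4. In TBT replicates 1, 2 and 3 it was −0.55, −0.44 and −0.26. It ran from −0.03 to 0.42 in ROSI libraries and from 0.05 to 0.27 in DMSO libraries. The cultures also differed in fat-cell markers: the summed level of 8 adipocyte markers was 2227 to 3354 CPM with TBT, 4378 to 5807 CPM with ROSI and 1055 to 2026 CPM with DMSO. Most of that sum came from Lpl, with a mean of 2176 CPM with TBT, 3245 CPM with ROSI and 996 CPM with DMSO, and from Fabp4. Adipoq averaged 2.30 CPM with TBT, 13.3 CPM with ROSI and 10.7 CPM with DMSO. Cfd averaged 3.35 CPM with TBT, 7.08 CPM with ROSI and 12.5 CPM with DMSO, and Cebpa 21.7 CPM with TBT, 55.7 CPM with ROSI and 22.1 CPM with DMSO, so these 3 were not higher with TBT than with DMSO. Reads on sensory receptor genes, which these cells are not known to use, summed to 115 to 195 CPM with TBT, 62.8 to 76.0 CPM with ROSI and 295 to 775 CPM with DMSO. The summed level of 8 mesenchymal stromal markers was 2170 to 2814 CPM with TBT, 1451 to 1627 CPM with ROSI and 3063 to 3630 CPM with DMSO. Most of this sum came from Pdgfra, Ly6a and Itgb1. Cd44 averaged 40.25 CPM with TBT, 56.1 CPM with ROSI and 59.8 CPM with DMSO. Thy1 was also lowest with TBT and Nt5e lowest with DMSO, so these markers were not lowest with ROSI. Eng, a defining stromal marker, had at most 5 counts in any library. Leukocyte markers summed to at most 33.5 CPM in any library, with at most 10 counts of Ptprc, and endothelial markers to at most 9.36 CPM, with at most 1 count of Cdh5. In bulk RNA a lower share of one cell type and less RNA per cell cannot be told apart. The part of cell makeup and of TBT replicate 4 in the results below was not tested, other than by the values given without that library.

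The 9 genes differed in direction from one another. In TBT against DMSO, 7 were higher and 2 lower by their log2 fold changes, with a median of 0.26, against −0.01 over all genes tested. In ROSI against DMSO, 3 were higher and 6 lower, with a median of −0.12, against 0.01 over all genes tested. In TBT against ROSI, 8 were higher and 1 lower, with a median of 0.37, against 0.02 over all genes tested. Some of these signs belong to changes smaller than their SE. They are Fkbp5 (0.05 ± 0.13) and Zbtb16 (0.04 ± 0.16) in TBT against ROSI, and Sgk1 (0.06 ± 0.16) and Zbtb16 (−0.01 ± 0.16) in TBT against DMSO. In ROSI against DMSO they are Nr3c1 (−0.12 ± 0.14) and Zbtb16 (−0.05 ± 0.16). The 3 comparisons share libraries in pairs, so these medians are not independent of each other.

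**Figure D1:**
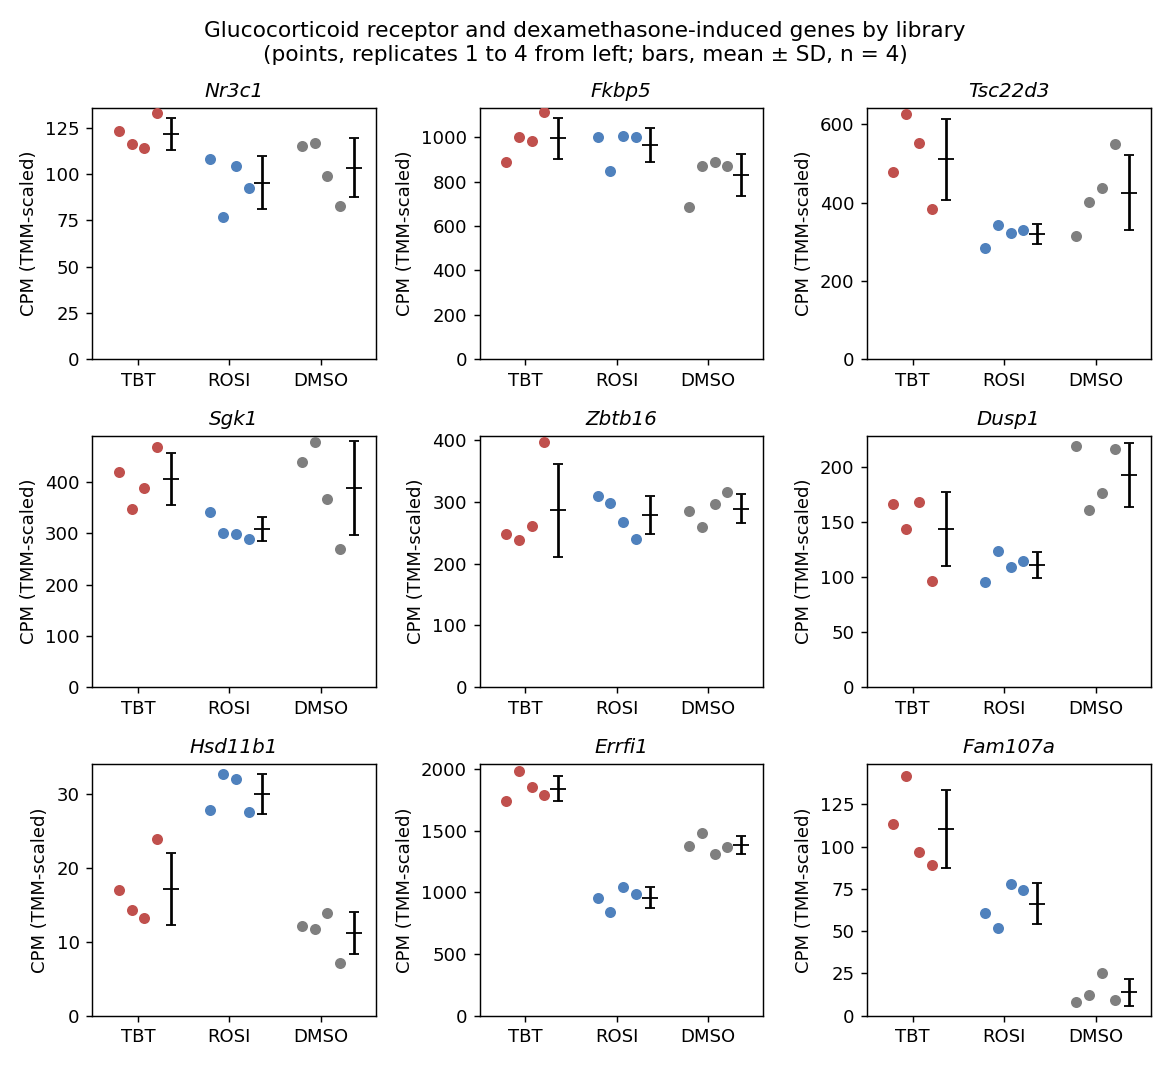
Level of each of the 9 genes in every library, in TMM-scaled CPM on an axis from 0, for TBT, ROSI and DMSO from left to right; points are libraries in replicate order and bars give the mean ± SD of 4 libraries. Fam107a lies at 89.4 to 142 CPM with TBT, 51.8 to 78.1 CPM with ROSI and 8.08 to 25.4 CPM with DMSO, while the Zbtb16 groups overlap.

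The receptor gene itself differed by at most 0.35 on the log2 scale. Nr3c1 had 123, 116, 114 and 133 CPM in TBT replicates 1 to 4, 108, 76.8, 104 and 92.5 CPM in ROSI replicates 1 to 4, and 115, 117, 99.2 and 82.5 CPM in DMSO replicates 1 to 4. The TBT libraries all lay above the ROSI libraries, while both groups overlapped the DMSO libraries. The log2 fold change was 0.35 ± 0.14 (SE) in TBT against ROSI, 0.24 ± 0.14 in TBT against DMSO and −0.12 ± 0.14 in ROSI against DMSO. TBT replicate 4 had the highest Nr3c1 level of the 12 libraries, and without it TBT against ROSI gave 0.31 and TBT against DMSO gave 0.19. GC-corrected offsets gave 0.18 in TBT against ROSI and 0.09 in TBT against DMSO, and 0.09 in TBT against ROSI when TBT replicate 4 was also left out. ROSI against DMSO ran from −0.21 to −0.02 when single libraries were left out, with −0.02 without ROSI replicate 2 and −0.21 without DMSO replicate 4. Nr3c2, the mineralocorticoid receptor that also binds glucocorticoids, was low, at 3.53 ± 0.352 CPM with TBT, 2.45 ± 0.656 CPM with ROSI and 2.96 ± 1.22 CPM with DMSO (SD, n = 4 each), and passed the threshold in no comparison (edgeR quasi-likelihood test, adjusted p of 0.25 in TBT against ROSI, 0.53 in TBT against DMSO and 0.71 in ROSI against DMSO).

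Fkbp5 encodes a cochaperone that lowers the receptor's affinity for its ligand and is itself induced by the receptor, a feedback loop widely used as a readout of glucocorticoid action. Its level was 888, 1001, 980 and 1112 CPM in TBT replicates 1 to 4, 1002, 849, 1004 and 999 CPM in ROSI replicates 1 to 4, and 687, 872, 890 and 872 CPM in DMSO replicates 1 to 4. ROSI replicate 2 and DMSO replicate 1 each stood below the other libraries of their group, and the groups overlapped in all 3 comparisons. The log2 fold change was 0.26 ± 0.13 in TBT against DMSO, 0.21 ± 0.13 in ROSI against DMSO and 0.05 ± 0.13 in TBT against ROSI. Without DMSO replicate 1, TBT against DMSO gave 0.18 and ROSI against DMSO 0.13, and without ROSI replicate 2, ROSI against DMSO gave 0.27 and TBT against ROSI −0.01.

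Hsd11b1 encodes the enzyme that regenerates active glucocorticoid from its inactive keto form inside the cell, and its expression is known to increase as fat cells mature. It was highest in the ROSI libraries. Its level was 17.0, 14.3, 13.3 and 23.9 CPM in TBT replicates 1 to 4, 27.8, 32.7, 32.0 and 27.5 CPM in ROSI replicates 1 to 4, and 12.1, 11.7, 13.8 and 7.11 CPM in DMSO replicates 1 to 4. All ROSI libraries lay above all TBT and all DMSO libraries, while the TBT and DMSO libraries overlapped. ROSI against DMSO gave a log2 fold change of 1.43 ± 0.21, TBT against DMSO 0.61 ± 0.22 and TBT against ROSI −0.81 ± 0.21. TBT replicate 4 was the highest TBT library, and without it TBT against DMSO gave 0.41 and TBT against ROSI gave −1.01. The order of the groups, ROSI above TBT above DMSO, was also that of the summed adipocyte markers, a sum carried mostly by Lpl and Fabp4.

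Tsc22d3 encodes a leucine zipper protein (known as GILZ) through which glucocorticoids restrain inflammation and, in marrow stromal cells, adipogenesis. Its level was 479, 626, 553 and 384 CPM in TBT replicates 1 to 4, 283, 343, 322 and 330 CPM in ROSI replicates 1 to 4, and 315, 401, 437 and 549 CPM in DMSO replicates 1 to 4. The TBT libraries all lay above the ROSI libraries, and the DMSO libraries reached into both ranges. TBT against ROSI gave a log2 fold change of 0.68 ± 0.17, TBT against DMSO 0.26 ± 0.17 and ROSI against DMSO −0.41 ± 0.17. TBT replicate 4 was the lowest TBT library, and without it TBT against ROSI gave 0.79 and TBT against DMSO 0.38. DMSO replicates 1 and 4 were the lowest and the highest of their group: TBT against DMSO gave 0.14 without DMSO replicate 1 and 0.41 without DMSO replicate 4, and ROSI against DMSO gave −0.53 without DMSO replicate 1 and −0.27 without DMSO replicate 4. Without TBT replicate 2, the highest TBT library, TBT against DMSO gave 0.15.

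Zbtb16 encodes the zinc finger repressor PLZF and is strongly induced by dexamethasone in many cell types. Its mean level was nearly the same in the 3 groups, at 286 ± 74.7 CPM with TBT, 278.5 ± 31.4 CPM with ROSI and 289 ± 23.2 CPM with DMSO (SD, n = 4 each). TBT replicate 4 held 397 CPM, while TBT replicates 1 to 3 held 238 to 261 CPM. The log2 fold change was −0.01 ± 0.16 in TBT against DMSO, −0.05 ± 0.16 in ROSI against DMSO and 0.04 ± 0.16 in TBT against ROSI, and without TBT replicate 4 the last of these was −0.16.

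Sgk1 encodes a kinase that takes up signals of insulin and of corticosteroids and was the gene whose window held the full receptor palindrome. Its level was 419, 347, 389 and 467 CPM in TBT replicates 1 to 4, 341.5, 301, 299 and 290 CPM in ROSI replicates 1 to 4, and 438, 478, 366 and 269.9 CPM in DMSO replicates 1 to 4. The lowest TBT library lay just above the highest ROSI library, and the DMSO libraries spanned both groups. TBT against ROSI gave a log2 fold change of 0.40 ± 0.16 and ROSI against DMSO −0.33 ± 0.16. When single libraries were left out, ROSI against DMSO ran from −0.47 to −0.22. TBT against DMSO gave 0.06 ± 0.16, and its sign turned without DMSO replicate 4, the lowest DMSO library (−0.08). It also turned with upper-quartile scaling (−0.01) and without TBT replicate 4 (−0.01), the latter also with GC-corrected offsets (−0.04).

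Dusp1 encodes a phosphatase that switches off MAP kinases and is a classic target of both glucocorticoids and cAMP. Its level was 166, 143, 169 and 96.8 CPM in TBT replicates 1 to 4, 96.0, 124, 109 and 115 CPM in ROSI replicates 1 to 4, and 219, 161, 176.5 and 216 CPM in DMSO replicates 1 to 4. All ROSI libraries lay below all DMSO libraries, and TBT replicate 4 lay with the ROSI libraries. ROSI against DMSO gave a log2 fold change of −0.80 ± 0.16, TBT against DMSO −0.43 ± 0.16 and TBT against ROSI 0.37 ± 0.16. Without TBT replicate 4, TBT against DMSO gave −0.28 and TBT against ROSI 0.52. GC-corrected offsets gave −0.27 in TBT against DMSO and 0.53 in TBT against ROSI. When TBT replicate 4 was also left out they gave −0.08 in TBT against DMSO and 0.72 in TBT against ROSI. Reads carried no strand, and in the GENCODE M21 annotation exons of Dusp1 overlap those of Ergic1 on the opposite strand, so reads of the 2 genes cannot be told apart there.

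Errfi1 encodes a feedback inhibitor that binds and silences the EGF receptor. It differed between all 3 groups without overlap. Its level was 1743, 1985, 1855 and 1793 CPM in TBT replicates 1 to 4, 951.5, 845, 1048 and 984 CPM in ROSI replicates 1 to 4, and 1374, 1481, 1309 and 1368 CPM in DMSO replicates 1 to 4. The 2 compounds thus lay on opposite sides of the vehicle: TBT against DMSO gave a log2 fold change of 0.42 ± 0.12, ROSI against DMSO −0.53 ± 0.12 and TBT against ROSI 0.95 ± 0.12, a 1.93-fold higher level with TBT. In all 22 alternative settings tried, TBT against DMSO kept a positive sign, from 0.34 to 0.45, though past the threshold given below in 12 of them only, and ROSI against DMSO a negative one, from −0.56 to −0.41.

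Fam107a encodes an actin-associated protein, known as a stress-responsive and glucocorticoid-responsive gene in the mouse brain. It showed the greatest differences from DMSO among the 9 genes with each compound, though Errfi1 and Hsd11b1 differed more between TBT and ROSI. Its level was 113.5, 142, 96.9 and 89.4 CPM in TBT replicates 1 to 4, 60.7, 51.8, 78.1 and 74.6 CPM in ROSI replicates 1 to 4, and 8.08, 12.4, 25.4 and 9.32 CPM in DMSO replicates 1 to 4. The 3 groups did not overlap, and DMSO replicate 3 was the highest DMSO library. TBT against DMSO gave a log2 fold change of 2.96 ± 0.28, a 7.79-fold higher level, ROSI against DMSO 2.23 ± 0.28, a 4.68-fold higher level, and TBT against ROSI 0.74 ± 0.25. By the size of its change Fam107a stood 10th among all genes tested in TBT against DMSO. Without DMSO replicate 3, TBT against DMSO gave 3.46 and ROSI against DMSO 2.75.

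**Figure D2:**
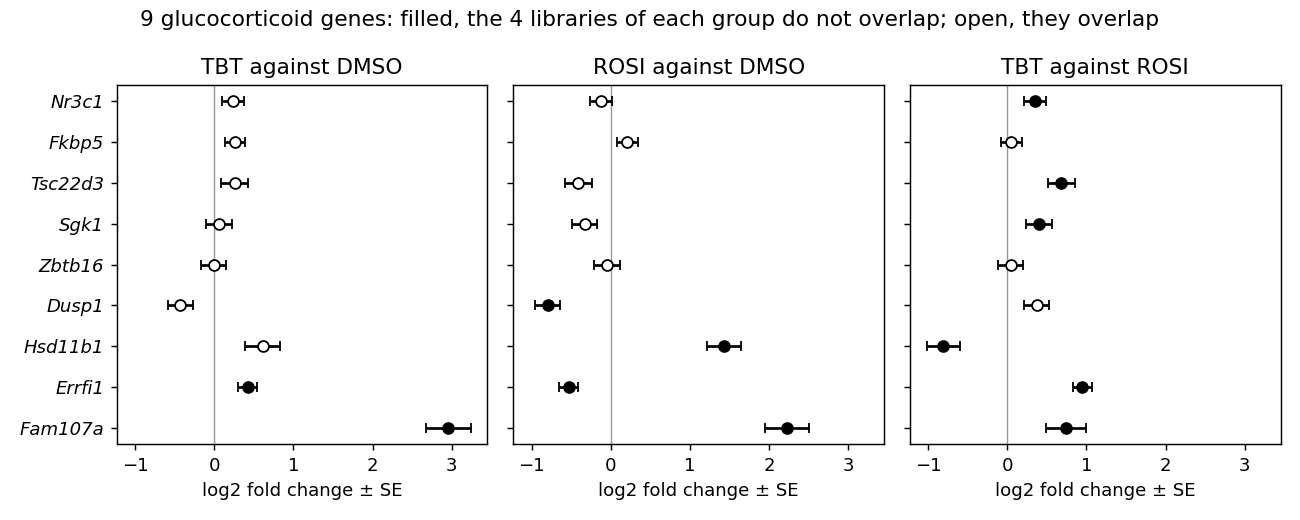
Log2 fold change ± SE of the 9 genes in TBT against DMSO, ROSI against DMSO and TBT against ROSI; filled points mark genes whose 4 libraries in one group all lay above or below the 4 of the other. Fam107a reaches 2.96 and 2.23 against DMSO, and Errfi1 lies at 0.42 in TBT and −0.53 in ROSI.

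Counts past the threshold of an adjusted p of 0.05 (edgeR quasi-likelihood test over all genes) are given for orientation only, since the genes were listed with these comparisons known. In TBT against DMSO, 2 of the 9 were past it, both higher (Errfi1 and Fam107a), against 15.2% of all genes tested (8.22% higher, 7.03% lower). Errfi1 lost this call in 10 of 22 alternatives: with upper-quartile factors, without a filter, with the replicate block and with only the 2 groups fitted, and it was past the threshold neither without DMSO replicate 1, DMSO replicate 3 or DMSO replicate 4 nor without TBT replicate 1, TBT replicate 2 or TBT replicate 3. With upper-quartile scaling the split over all genes in this comparison was 748 higher and 1143 lower, in place of 1013 higher and 866 lower. In ROSI against DMSO, 4 were past it, with Hsd11b1 and Fam107a higher and Dusp1 and Errfi1 lower, against 22.6% of all genes tested (10% higher, 12.6% lower). In TBT against ROSI, 4 were past it, with Tsc22d3, Errfi1 and Fam107a higher and Hsd11b1 lower, against 23.9% of all genes tested (12.8% higher, 11.1% lower). Fam107a lost this call in 10 of 22 alternatives: with upper-quartile factors, with the replicate block, without any 1 of the ROSI libraries, without DMSO replicate 2, and without TBT replicate 1, TBT replicate 2 or TBT replicate 3. Groups of libraries that did not overlap were found for 2 of the 9 genes in TBT against DMSO (15.7% of all genes tested), 4 in ROSI against DMSO (28.3%) and 6 in TBT against ROSI (20.7%).

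Within groups, some of the 9 genes followed each other and others ran opposite. DMSO replicate 4 had the highest Tsc22d3 level and the lowest Sgk1, Nr3c1 and Hsd11b1 levels of the DMSO libraries. In TBT replicate 4 Tsc22d3 and Dusp1 were the lowest of the TBT libraries, while Nr3c1, Fkbp5, Sgk1, Zbtb16 and Hsd11b1 were the highest. Across the 12 libraries, Nr3c1 and Sgk1 had r = 0.82, and r = 0.79 after the group means were removed. Tsc22d3 and Sgk1 had r = 0.03, and −0.85 after the group means were removed. Sgk1 and Hsd11b1 had r = −0.21, and 0.70 after the group means were removed. Dusp1 and Hsd11b1 had r = −0.87, and −0.60 after the group means were removed. These coefficients are a description of 12 libraries that share 3 treatments and their own depth and base composition.

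**Figure D3:**
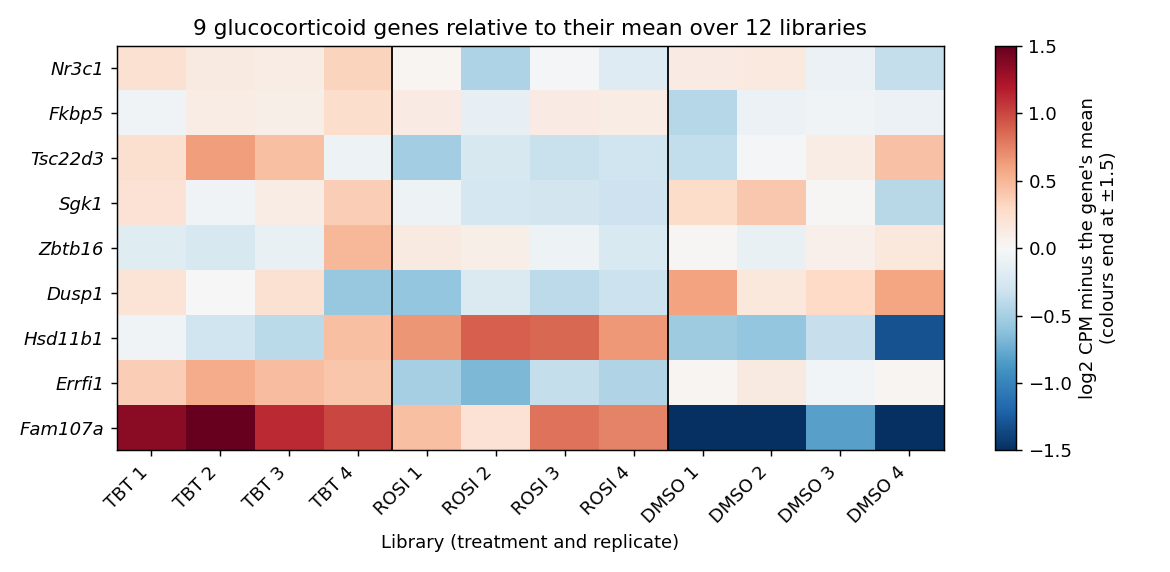
Log2 CPM of the 9 genes in each of the 12 libraries minus the gene's mean over all of them, with TBT, ROSI and DMSO libraries from left to right and colours that end at ±1.5. Fam107a and Errfi1 are high in every TBT library, Hsd11b1 in every ROSI library, and TBT replicate 4 departs from TBT replicates 1 to 3 in Zbtb16, Dusp1 and Hsd11b1.

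For a rough comparison between genes, levels were divided by the merged length of all annotated exons of each gene, in kilobases. This length can exceed that of the transcripts expressed here, to unlike degrees, so the order of the genes depends on it. By this measure Errfi1 was the most abundant of the 9 in every group, with a mean of 515 CPM per kb with TBT, 267 with ROSI and 386 with DMSO. Tsc22d3, Fkbp5 and Sgk1 came next in every group, at 82.7 to 118 CPM per kb with TBT, 62.8 to 102 with ROSI and 79.1 to 98.0 with DMSO, and their libraries overlapped in the TBT and DMSO groups. By its mean Hsd11b1 was the lowest in every group, at 4.03 CPM per kb with TBT, 7.06 with ROSI and 2.63 with DMSO, and in the DMSO group its libraries overlapped those of Fam107a. Fam107a stood above Nr3c1 with TBT, at 28.5 against 15.8 CPM per kb, and below it with DMSO, at 3.57 against 13.5 CPM per kb.

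The genes whose log2 levels were most like those of each gene over the 12 libraries, by Pearson's r, were Slc16a4 (0.957) and Abca5 (0.926) for Nr3c1, Ankrd46 (0.937) and Hspa1a (0.877) for Fkbp5, and Arhgef18 (0.960) and Znhit6 (0.956) for Tsc22d3. They were Lnpep (0.944) and 4931406P16Rik (0.889) for Sgk1, Srebf2 (0.919) and Spin1 (0.912) for Zbtb16, and 4921513I03Rik (0.950) and Spred3 (0.948) for Dusp1. For Hsd11b1 they were Tgoln2 (0.986) and Slc2a4 (0.960), the insulin-responsive glucose transporter. Parva (0.980) and Plekha2 (0.975) were most like Errfi1, and Acsm3 (0.983) and Decr1 (0.970), enzymes of fatty acid metabolism, most like Fam107a. These are the highest coefficients among all genes tested, over libraries that share treatments, so they describe likeness only. Hspa1a has a near-identical copy, Hspa1b, so its reads may be split between them. Some of these genes were low, so their coefficients rest on few reads. Hspa1a had group means of 1.39 to 3.54 CPM, 4921513I03Rik of 2.70 to 7.27 CPM and Slc2a4 of 2.05 to 10.5 CPM.

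The wider glucocorticoid pathway was read from 9 lists of genes, tested with edgeR over all genes. These lists, like the 9 genes, were chosen with earlier results of these data known. Their counts, shares and p-values are therefore given for orientation only and are not independent support. Of 36 tested genes known to be induced by glucocorticoids, other than the 9, 9 rose and 4 fell in TBT against DMSO, 8 rose and 7 fell in ROSI against DMSO, and 9 rose and 5 fell in TBT against ROSI. Their median log2 fold change was 0.13 in TBT against DMSO, 0.21 in ROSI against DMSO and 0.10 in TBT against ROSI. In the same order, 36.1%, 41.7% and 38.9% of them passed the threshold, against 15.2%, 22.6% and 23.9% of all genes tested. When single libraries were left out, 7 to 13 rose and 3 to 7 fell in TBT against DMSO, the highest counts without TBT replicate 4. Without TBT replicate 1, TBT replicate 2, TBT replicate 3 or DMSO replicate 2, 7 rose and 3 fell. A further 6 genes of this list were too low to test.

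Angptl4 and Pdk4, which are also known targets of PPAR receptors, rose with both compounds. Angptl4, a secreted inhibitor of lipoprotein lipase, had 418 ± 66.9 CPM with TBT, 202 ± 21.6 CPM with ROSI and 49.0 ± 19.5 CPM with DMSO. It rose by a log2 fold change of 3.08 ± 0.22 in TBT against DMSO (adjusted p = 3.2e-07), by 2.04 ± 0.21 in ROSI against DMSO (adjusted p = 3.1e-06) and by 1.04 ± 0.20 in TBT against ROSI (adjusted p = 0.0015). Pdk4, the kinase that shuts off pyruvate dehydrogenase, had 375 ± 48.6 CPM with TBT, 398 ± 12.9 CPM with ROSI and 135 ± 39.6 CPM with DMSO, with a log2 fold change of 1.47 ± 0.17 in TBT against DMSO (adjusted p = 5.8e-05) and 1.56 ± 0.17 in ROSI against DMSO (adjusted p = 5.5e-06). Ppp1r3c, which targets a phosphatase to glycogen, rose by 1.67 ± 0.16 in TBT against DMSO (adjusted p = 8.4e-06) and by 1.23 ± 0.16 in ROSI against DMSO (adjusted p = 2.3e-05).

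Other induced genes fell. With TBT against DMSO, Lcn2, an iron-carrier binding protein, fell by 1.19 on the log2 scale (SE 0.19, adjusted p = 0.00085), the metallothionein Mt2 fell by 0.92 (SE 0.19, adjusted p = 0.0053) and the clock gene Per1 fell by 0.82 (SE 0.20, adjusted p = 0.012). With ROSI against DMSO, Anxa1, a mediator of the anti-inflammatory action of glucocorticoids, fell by 0.86 (SE 0.13, adjusted p = 7.9e-05), the matricellular gene Cyr61 fell by 0.91 (SE 0.17, adjusted p = 8e-04) and Pik3r1, a regulatory subunit of PI3 kinase, fell by 0.62 (SE 0.12, adjusted p = 0.0014). The compounds also differed directly: Nfkbia, the inhibitor of NF-κB, was higher in TBT against ROSI by 1.31 ± 0.23 (adjusted p = 0.00069) and Anxa1 by 0.92 ± 0.13 (adjusted p = 7e-05). Cdkn1a, the cell cycle inhibitor p21, had 61.7 ± 18.4 CPM with TBT, 181 ± 31.4 CPM with ROSI and 73.3 ± 17.9 CPM with DMSO, a log2 fold change of 1.30 ± 0.21 in ROSI against DMSO (adjusted p = 0.00016) and −1.56 ± 0.21 in TBT against ROSI (adjusted p = 5.7e-05).

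**Figure D4:**
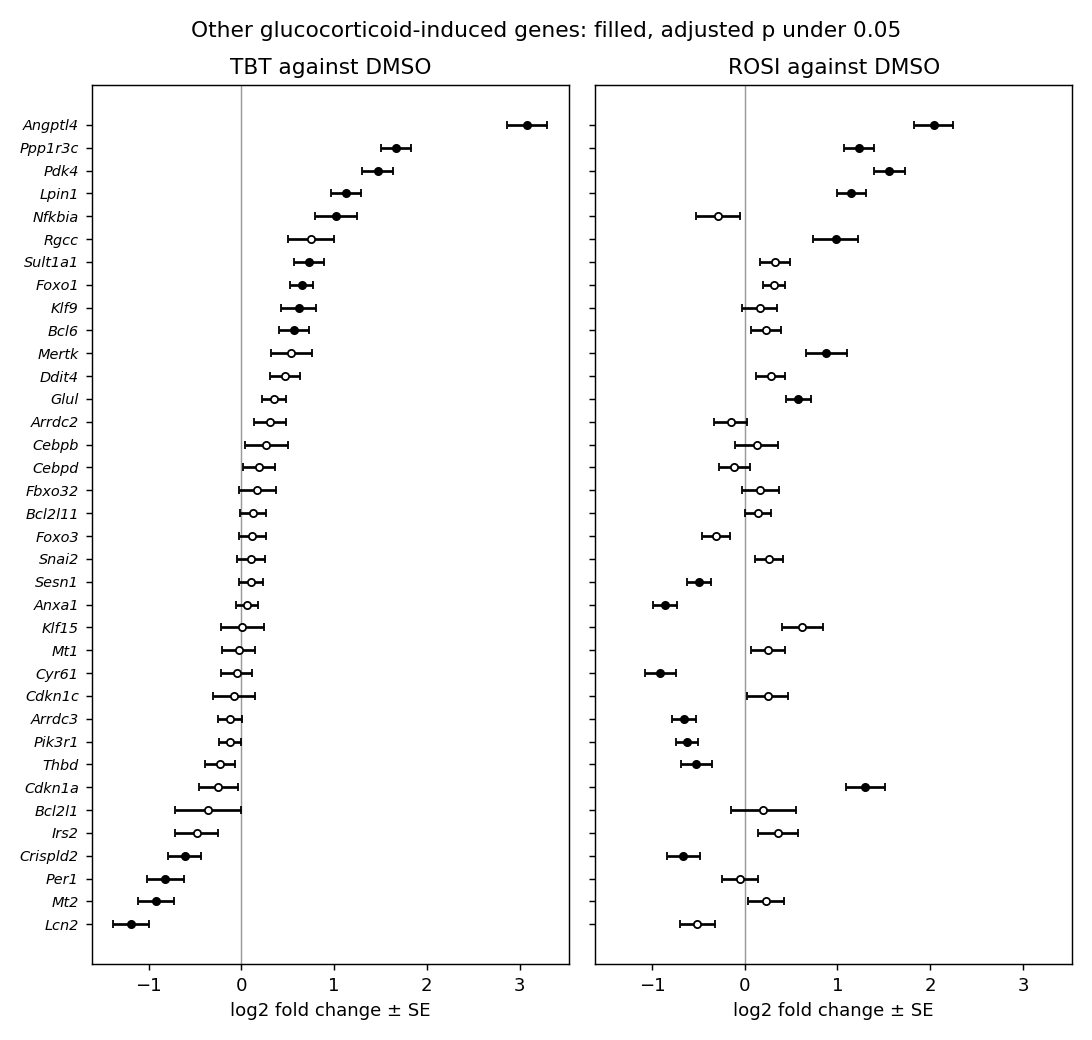
Log2 fold change ± SE of the 36 tested genes of the list of other glucocorticoid-induced genes in TBT against DMSO and ROSI against DMSO, with filled points for an adjusted p under 0.05. Angptl4 stands at 3.08 with TBT and 2.04 with ROSI, and Lcn2 at −1.19 is the lowest with TBT.

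Genes known to be repressed by glucocorticoids differed between the compounds. Of 14 tested genes of this list, none rose and 1 fell in TBT against DMSO, none rose and 10 fell in ROSI against DMSO, and 7 rose and none fell in TBT against ROSI. The median log2 fold change was −0.45 in TBT against DMSO, −1.17 in ROSI against DMSO and 0.80 in TBT against ROSI. The shares past the threshold, in this order, were 7.14%, 71.4% and 50%, against 15.2%, 22.6% and 23.9% of all genes tested. A further 15 genes of the list, Il6, Il1b and Tnf among them, were too low to test. Plau, the urokinase gene, had 51.8 ± 6.26 CPM with TBT, 21.2 ± 2.93 CPM with ROSI and 48.4 ± 8.80 CPM with DMSO, a log2 fold change of −1.19 ± 0.16 in ROSI against DMSO (adjusted p = 3.6e-05) and 1.28 ± 0.16 in TBT against ROSI (adjusted p = 3e-05). The collagen gene Col1a1 had 105 ± 27.1 CPM with TBT, 56.0 ± 17.9 CPM with ROSI and 147 ± 17.5 CPM with DMSO, and fell by 1.39 in ROSI against DMSO (SE 0.22, adjusted p = 2e-04). Cxcl10, a chemokine at a low level, fell by 3.37 in ROSI against DMSO (SE 0.50, adjusted p = 8.9e-05), with 0.411 ± 0.117 CPM with ROSI and 4.77 ± 3.04 CPM with DMSO. Ptgs2, which makes prostaglandins, was higher in TBT against ROSI by 0.64 ± 0.14 (adjusted p = 0.0033). Ccl2, a monocyte chemokine, was the gene that fell in TBT against DMSO, by 1.77 (SE 0.40, adjusted p = 0.0091). Leaving out TBT replicate 1 or TBT replicate 3 took the count that rose in TBT against ROSI to 4, and without TBT replicate 4 the count in TBT against DMSO was 2 up and 3 down. Several genes of this list, the collagens among them, are also expressed by stromal cells, whose summed markers were lowest in the ROSI libraries. That sum was carried mostly by Pdgfra, Ly6a and Itgb1, while Cd44, Thy1 and Nt5e were not lowest with ROSI. The summed reads on sensory receptor genes were also lowest with ROSI and highest with DMSO (62.8 to 76.0 CPM against 295 to 775 CPM), and their part in the counts of low genes such as Cxcl10 was not tested.

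The receptor's chaperones gave counts that rested on single libraries. Of 18 tested, 6 rose and none fell in TBT against DMSO, 1 rose and none fell in ROSI against DMSO, and 1 rose and 5 fell in TBT against ROSI. Past the threshold, in this order, were 33.3%, 5.56% and 33.3%, against 15.2%, 22.6% and 23.9% of all genes tested. Dnajb1, a heat shock cochaperone, had 108.5 ± 29.4 CPM with TBT, 81.7 ± 10.4 CPM with ROSI and 54.7 ± 18.8 CPM with DMSO, and rose by 0.98 ± 0.23 in TBT against DMSO (adjusted p = 0.0096). Without TBT replicate 1 or DMSO replicate 1, 1 chaperone rose in TBT against DMSO. Without TBT replicate 2, TBT replicate 3 or DMSO replicate 2, 2 rose, and without TBT replicate 4, 7 rose and 5 fell. When single libraries were left out, the number that rose in ROSI against DMSO ran from 0 to 6 and the number that fell in TBT against ROSI from 0 to 6, the 6 in each case without TBT replicate 4.

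Of 19 coregulators of the receptor, 3 rose and 1 fell in TBT against DMSO, 1 rose and 2 fell in ROSI against DMSO, and 2 rose and 1 fell in TBT against ROSI. The share past the threshold was 21.1% in TBT against DMSO (15.2% of all genes tested), 15.8% in ROSI against DMSO (22.6%) and 15.8% in TBT against ROSI (23.9%). Ncoa1, the first steroid receptor coactivator described, rose by 0.67 ± 0.12 in ROSI against DMSO (adjusted p = 0.00067), with 107 ± 7.49 CPM with ROSI and 67.0 ± 7.27 CPM with DMSO. Nrip1, a corepressor of energy metabolism in fat cells, rose by 0.60 ± 0.14 in TBT against DMSO (adjusted p = 0.010), and Hdac2, a histone deacetylase, by 0.61 ± 0.15 (adjusted p = 0.012). Without TBT replicate 4, 8 coregulators rose and 2 fell in TBT against ROSI, and without TBT replicate 1 none rose. When single libraries were left out, the number that rose in TBT against DMSO ran from 2 to 5, and the number that fell in ROSI against DMSO from 0 to 4.

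Of 10 tested genes of corticosteroid handling, 1 rose and 1 fell against DMSO with each compound, and 2 rose and 1 fell in TBT against ROSI. These are 20% of the list against DMSO with each compound and 30% in TBT against ROSI. Of all genes tested, 15.2% passed in TBT against DMSO, 22.6% in ROSI against DMSO and 23.9% in TBT against ROSI. Por, which supplies electrons to microsomal cytochromes, had 84.7 ± 3.89 CPM with TBT, 101 ± 6.63 CPM with ROSI and 48.8 ± 8.03 CPM with DMSO. It rose by 0.79 ± 0.13 in TBT against DMSO (adjusted p = 0.00089) and by 1.04 ± 0.13 in ROSI against DMSO (adjusted p = 1.4e-05). Akr1c14, a hydroxysteroid dehydrogenase, had 21.5 ± 1.96 CPM with TBT, 6.99 ± 1.52 CPM with ROSI and 22.1 ± 2.40 CPM with DMSO, a log2 fold change of −1.65 ± 0.18 in ROSI against DMSO (adjusted p = 4.5e-06) and 1.61 ± 0.18 in TBT against ROSI (adjusted p = 9.4e-06). The transporter gene Abcb1b fell in TBT against DMSO (−0.59 ± 0.16, adjusted p = 0.022), a call lost without DMSO replicate 1 (adjusted p = 0.051), DMSO replicate 4 (0.052), TBT replicate 1 (0.050) or TBT replicate 3 (0.055). In TBT against ROSI, the number that rose ran from 1 to 3 and the number that fell from 0 to 1 when single libraries were left out, and with the replicate block 1 rose and none fell, since the calls of H6pd and Abcb1b were easily lost.

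**Figure D5:**
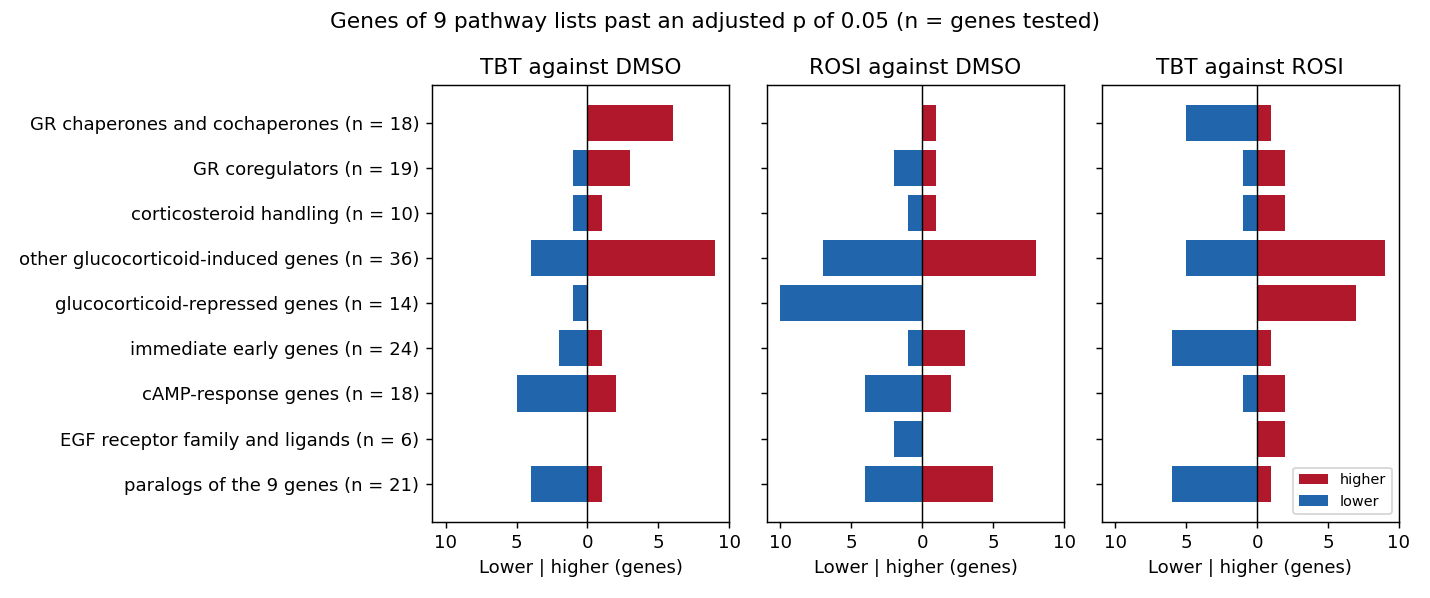
Number of tested genes of each of the 9 lists past an adjusted p of 0.05, with lower counts to the left of 0 and higher counts to the right, in TBT against DMSO, ROSI against DMSO and TBT against ROSI. The glucocorticoid-repressed list has 10 lower genes in ROSI against DMSO and 1 in TBT against DMSO.

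Dusp1 and Errfi1 also answer to cAMP, growth factors and acute stimuli, so genes of those pathways are given beside them. The list of cAMP-response genes holds parts of the pathway, such as phosphodiesterases, as well as its targets. Its counts are therefore no measure of cAMP action. Of 18 tested genes of this list, 2 rose and 5 fell in TBT against DMSO, 2 rose and 4 fell in ROSI against DMSO, and 2 rose and 1 fell in TBT against ROSI. The shares past the threshold, in this order, were 38.9%, 33.3% and 16.7%, against 15.2%, 22.6% and 23.9% of all genes tested. The cAMP phosphodiesterase Pde3b, which carries insulin's antilipolytic signal in fat cells, rose by 0.81 ± 0.15 in TBT against DMSO (adjusted p = 0.0027) and by 0.95 ± 0.15 in ROSI against DMSO (adjusted p = 0.00017). Prkar2b, a regulatory subunit of protein kinase A, rose by 0.89 ± 0.22 in TBT against DMSO (adjusted p = 0.012) and by 1.84 ± 0.22 in ROSI against DMSO (adjusted p = 1.2e-05). Pde10a and Pde7b fell with both compounds, by 0.59 and 0.71 in TBT against DMSO (SE 0.13 and 0.15, adjusted p = 0.0064 for each) and by 0.85 and 0.74 in ROSI against DMSO (SE 0.13 and 0.15, adjusted p = 9.1e-05 and 0.0016). Dio2, which activates thyroid hormone, had 72.6 ± 22.8 CPM with TBT, 27.8 ± 7.38 CPM with ROSI and 104 ± 36.8 CPM with DMSO, and fell by 1.91 in ROSI against DMSO (SE 0.27, adjusted p = 5e-05). Without DMSO replicate 1, DMSO replicate 2, TBT replicate 1 or TBT replicate 3, the number that fell in TBT against DMSO was 2, and without TBT replicate 2 it was 3. Without TBT replicate 4, 3 rose and 4 fell in TBT against ROSI.

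Of 24 immediate early genes, 1 rose and 2 fell in TBT against DMSO, 3 rose and 1 fell in ROSI against DMSO, and 1 rose and 6 fell in TBT against ROSI. The shares past the threshold, 12.5% in TBT against DMSO and 16.7% in ROSI against DMSO, were below those of all genes tested (15.2% and 22.6%), and that in TBT against ROSI was 29.2% (23.9% of all genes). Atf3, a stress-induced transcription factor, had 2.70 ± 0.719 CPM with TBT, 17.5 ± 5.43 CPM with ROSI and 4.92 ± 1.36 CPM with DMSO, a log2 fold change of 1.82 ± 0.26 in ROSI against DMSO (adjusted p = 6.2e-05) and −2.67 ± 0.28 in TBT against ROSI (adjusted p = 5.1e-06). Klf2, an anti-adipogenic transcription factor, fell by 1.03 in ROSI against DMSO (SE 0.23, adjusted p = 0.0037). Without TBT replicate 4, 3 immediate early genes rose and 6 fell in TBT against DMSO, and without TBT replicate 3 none passed. With GC-corrected offsets, 1 rose and none fell in TBT against DMSO and 4 rose and 6 fell in TBT against ROSI. With both GC-corrected offsets and TBT replicate 4 left out, 8 rose and 3 fell in TBT against DMSO, the opposite balance.

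Of 6 tested genes of the EGF receptor family and its ligands, none passed in TBT against DMSO, where Erbb2 had the smallest p (−0.38 ± 0.18, adjusted p = 0.15) and was the 1 gene under 0.05 before adjustment, with 0 called by DESeq2 as well, 2 fell in ROSI against DMSO and 2 rose in TBT against ROSI. Past the threshold, in this order, were 0%, 33.3% and 33.3% of these 6 genes, against 15.2%, 22.6% and 23.9% of all genes tested. Egfr, the receptor that the Errfi1 protein silences, had 481 ± 131 CPM with TBT, 268 ± 43.4 CPM with ROSI and 446.5 ± 50.3 CPM with DMSO. It fell by 0.73 in ROSI against DMSO (SE 0.18, adjusted p = 0.0069) and was higher in TBT against ROSI by 0.84 ± 0.18 (adjusted p = 0.0034). Nrg1, a ligand gene of the wider receptor family and not of Egfr itself, fell by 0.99 in ROSI against DMSO (SE 0.21, adjusted p = 0.0021). It was higher in TBT against ROSI by 0.80 ± 0.21 (adjusted p = 0.012), a call lost without TBT replicate 1 (adjusted p = 0.063).

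Among 21 tested relatives of the 9 genes, 1 rose and 4 fell in TBT against DMSO, 5 rose and 4 fell in ROSI against DMSO, and 1 rose and 6 fell in TBT against ROSI. The shares past the threshold, in this order, were 23.8%, 42.9% and 33.3%, against 15.2%, 22.6% and 23.9% of all genes tested. Among the other dual-specificity phosphatases, Dusp4 had 7.93 ± 2.87 CPM with TBT, 22.2 ± 5.71 CPM with ROSI and 9.54 ± 1.84 CPM with DMSO, and rose by 1.20 ± 0.25 in ROSI against DMSO (adjusted p = 0.0019). Dusp10 rose with both compounds, by 0.89 ± 0.23 in TBT against DMSO (adjusted p = 0.017) and 0.88 ± 0.23 in ROSI against DMSO (adjusted p = 0.0091). Dusp14 fell with both, by 0.80 in TBT against DMSO (SE 0.19, adjusted p = 0.011) and by 1.17 in ROSI against DMSO (SE 0.19, adjusted p = 0.00024). Zbtb20, a relative of Zbtb16, fell by 0.74 in ROSI against DMSO (SE 0.15, adjusted p = 0.0018), and Tsc22d4, a relative of Tsc22d3, fell by 0.92 in TBT against DMSO (SE 0.23, adjusted p = 0.013). Without TBT replicate 4, 7 relatives fell in TBT against DMSO, and without DMSO replicate 2 or ROSI replicate 2, 2 fell in ROSI against DMSO.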

How the data were processed

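The authors deposited raw read counts per gene symbol and regularized-log values on a log2 scale for the same 12 libraries. Per the submitters' processing notes, DESeq2, SAMtools and FastQC were run and mm9 was the build. The sources used here name no aligner, counter or annotation. Per the labels' protocols, reads were 50 nt long and carried no strand.

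Counts were analysed with edgeR 4.0.16 in R 4.3.3: filterByExpr by the 3 groups, TMM scaling, 1 quasi-likelihood fit of all 12 libraries without covariates, and Benjamini-Hochberg adjustment over the 12323 genes tested, with a threshold of 0.05. Log2 CPM used a prior count of 2. Lengths (all exons of a gene merged) and GC content (of its longest transcript) came from GENCODE M21, for 98.5% of symbols. Alternatives were DESeq2 1.42.0 or its size factors, upper-quartile factors, a minimum mean of 5 CPM, no filter, a replicate block, fits of 2 groups, each library left out, and limma 3.58.1 on the deposited log2 values. GC-corrected offsets, with and without TBT replicate 4, were chosen after seeing the data.

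The 9 genes and the pathway lists were chosen with earlier results of these data known. Genes named are the 9, Nr3c2, up to 3 genes per list, comparison and direction with the smallest p past the threshold, the 2 genes most like each of the 9, and cell type markers; from these, genes whose call was easily lost are mostly given only in the counts. No 2 libraries of a group were copies, the lowest chi-square over its degrees of freedom being 4.66. The scripts were tested on simulated counts.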

Additional observations from a re-analysis of the deposited data

Results flagged for a closer look

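In 27 groups of 4 libraries (9 genes in 3 treatments), 3 libraries lay far from the rest of their group, by Dixon's test of the gap to the nearest library over the group's range. Chance gives about 1 such library in 20 groups. Fkbp5 was 849 CPM in ROSI replicate 2, with a gap of 0.967 of the range, and 687 CPM in DMSO replicate 1, with a gap of 0.909. Zbtb16 was 397 CPM in TBT replicate 4, with a gap of 0.852, in the library that also stood apart from its group across genes.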

How the results depend on the processing

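Over 22 alternatives and 3 comparisons, 547 of 594 fold changes of the 9 genes kept their sign and their side of the threshold, and 16 changed sign, all at small values. Another 20 kept their sign but lost the call, those of Errfi1 and Fam107a given above. A further 11 kept their sign and gained a call. These were Tsc22d3 (3) and Sgk1 (1) in ROSI against DMSO and Hsd11b1 (2) and Dusp1 (1) in TBT against DMSO. The others were Dusp1 (3) and Sgk1 (1) in TBT against ROSI. Sgk1 in TBT against DMSO was −0.01 with upper-quartile factors, −0.04 with GC-corrected offsets and without TBT replicate 4, and −0.08 to 0.18 when single libraries were left out. Zbtb16 in TBT against DMSO was 0.10 with GC-corrected offsets and −0.21 to 0.06 when single libraries were left out, −0.11 to 0.02 in ROSI against DMSO and −0.16 to 0.12 in TBT against ROSI. Fkbp5 in TBT against ROSI was −0.01 to 0.08 when single libraries were left out. Nr3c1 in TBT against DMSO was −1.10e-03 with GC-corrected offsets and without TBT replicate 4. The cause was not tested.

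In TBT against DMSO, 1879 genes passed the threshold, 3431 with GC-corrected offsets and without TBT replicate 4, and 998 to 4061 when single libraries were left out, the highest without TBT replicate 4. In TBT against ROSI, 2940 genes passed, and 1704 to 4782 when single libraries were left out, the highest again without TBT replicate 4. Of the 9 genes, 2 passed in TBT against DMSO, 1 when only the 2 groups were fitted and 1 to 2 when single libraries were left out. Without a filter the median log2 fold change of all genes was −0.215 in TBT against DMSO and −0.179 in ROSI against DMSO. Of 594 list counts, 100 moved by over 1.5 times.

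With the replicate number as a replicate block, 1160 genes and 1 of the 9 passed in TBT against DMSO. Libraries that share a number did not deviate together (r from −0.43 to 0.14 over 12 pairs, against −0.22 to 0.38 over 36 other pairs). A shared effect smaller than these swings would not show, so pairing by number is not excluded. Without a group free of dexamethasone, induction itself cannot be read from these levels.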
